A study of Danio rerio with 24 samples.

Results

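The 10 genes described here were chosen by the rise of their counts after 1 h of TP-0903, a multi-kinase inhibitor, in whole zebrafish embryos. They are nrip1a, nr6a1b, SLC22A3, prickle1b, znf503, znf703, dact2, tsc22d3, rgmd and cp, which were the 10 members found among 16361 genes listed at 1 h and 4 h and 18984 listed at 8 h. Each name occurred once in every table, and all 10 passed the filter on low counts at each time. At 1 h cp passed it only through the TP-0903 libraries, where it was higher. The question was how large the difference became and how long it lasted over 1, 4 and 8 h.

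Embryos of 13 hpf (8 somites) were kept at 28°C in TP-0903 or in DMSO, the solvent, for 1, 4 or 8 h and their RNA was sequenced. The 6 groups were TP-0903 for 1 h and DMSO for 1 h, collected at 14 hpf (10 somites), TP-0903 for 4 h and DMSO for 4 h, collected at 17 hpf (16 somites), and TP-0903 for 8 h and DMSO for 8 h, collected at 19.5 hpf (21 somites). Each group had 4 replicate libraries, 24 in all, and each library pooled 35 embryos. All groups, DMSO included, carried the transgene that the labels call Tg(snail1b:GFP), in which a promoter active in neural crest drives GFP, but the RNA came from whole embryos of this single transgenic strain. The collection age given for the 8 h groups is earlier than the starting age plus the treatment time.

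The 10 genes belong to no single pathway. The protein of nrip1a (RIP140 in mammals) is a corepressor that binds nuclear receptors, among them retinoic acid receptors, and nr6a1b encodes an orphan nuclear receptor known in mammals as germ cell nuclear factor. Zinc finger proteins encoded by znf503 and znf703 (also called nlz2 and nlz1) are corepressors that pattern the zebrafish hindbrain. Prickle proteins, encoded here by prickle1b, are core components of planar cell polarity, the signalling that orients cells within a sheet and guides migrating neurons, and dact2 encodes a Dapper protein, a regulator of Wnt and TGF-beta signalling. In mammals tsc22d3 is a glucocorticoid-induced leucine zipper gene, rgmd belongs to the repulsive guidance molecule family, cp encodes ceruloplasmin, a copper-carrying ferroxidase, and SLC22A3 encodes an organic cation transporter.

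Library totals lay between 3879310 and 10582470 counts. At 1 h the TP-0903 libraries were deeper, with a median of 8561006 counts, against 4235557 in DMSO. Levels below are counts per 1000000 (CPM), computed with library sizes rescaled by TMM, a factor that evens out differences in composition, and fold changes are log2 values of TP-0903 over DMSO with their standard errors (SE). A gene was called where edgeR's quasi-likelihood test gave a Benjamini-Hochberg adjusted p under 0.05 over all genes tested. Each SE, and each 95% interval built on it, was back-calculated from the fold change and the F statistic of that test. In RNA of whole embryos, fewer cells of a type and less RNA per cell cannot be told apart. Replicates are given as biological in the study's methods, and p-values describe the spread between these pools.

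The values that selected the genes come first, as a description without a test. At 1 h the log2 fold change was 1.72 for cp, 1.40 for nr6a1b, 1.37 for SLC22A3, 1.31 for nrip1a and 1.02 for znf503. It was 0.88 for znf703, 0.74 for tsc22d3, 0.69 for dact2, 0.68 for prickle1b and 0.47 for rgmd. The members were thus spread over a range of sizes, and ranked by fold change among 15530 genes they stood between place 2 (cp) and place 325 (rgmd). The place of cp rests on 2 to 7 counts per DMSO library, and it entered the ranking only through its TP-0903 libraries. Of the 10 highest genes 4 were members, and of the 100 highest 9 were, so that other genes had larger differences at 1 h than some members. The rule names genes and has no numeric limit, and rgmd is the member with the smallest 1 h value. At 1 h the lowest TP-0903 library exceeded the highest DMSO library in all 10 genes, which held for 0.786% of all genes. Because these same libraries chose the 10 genes, that separation largely follows from the choice and is no evidence of a rise. Across all genes, edgeR called 0 genes at 1 h with 214 at an unadjusted p under 0.05, whereas DESeq2 called 11 and limma voom 1. Those 214 are fewer than a threshold of 0.05 would give by chance among 15530 genes.

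**Figure D1:**
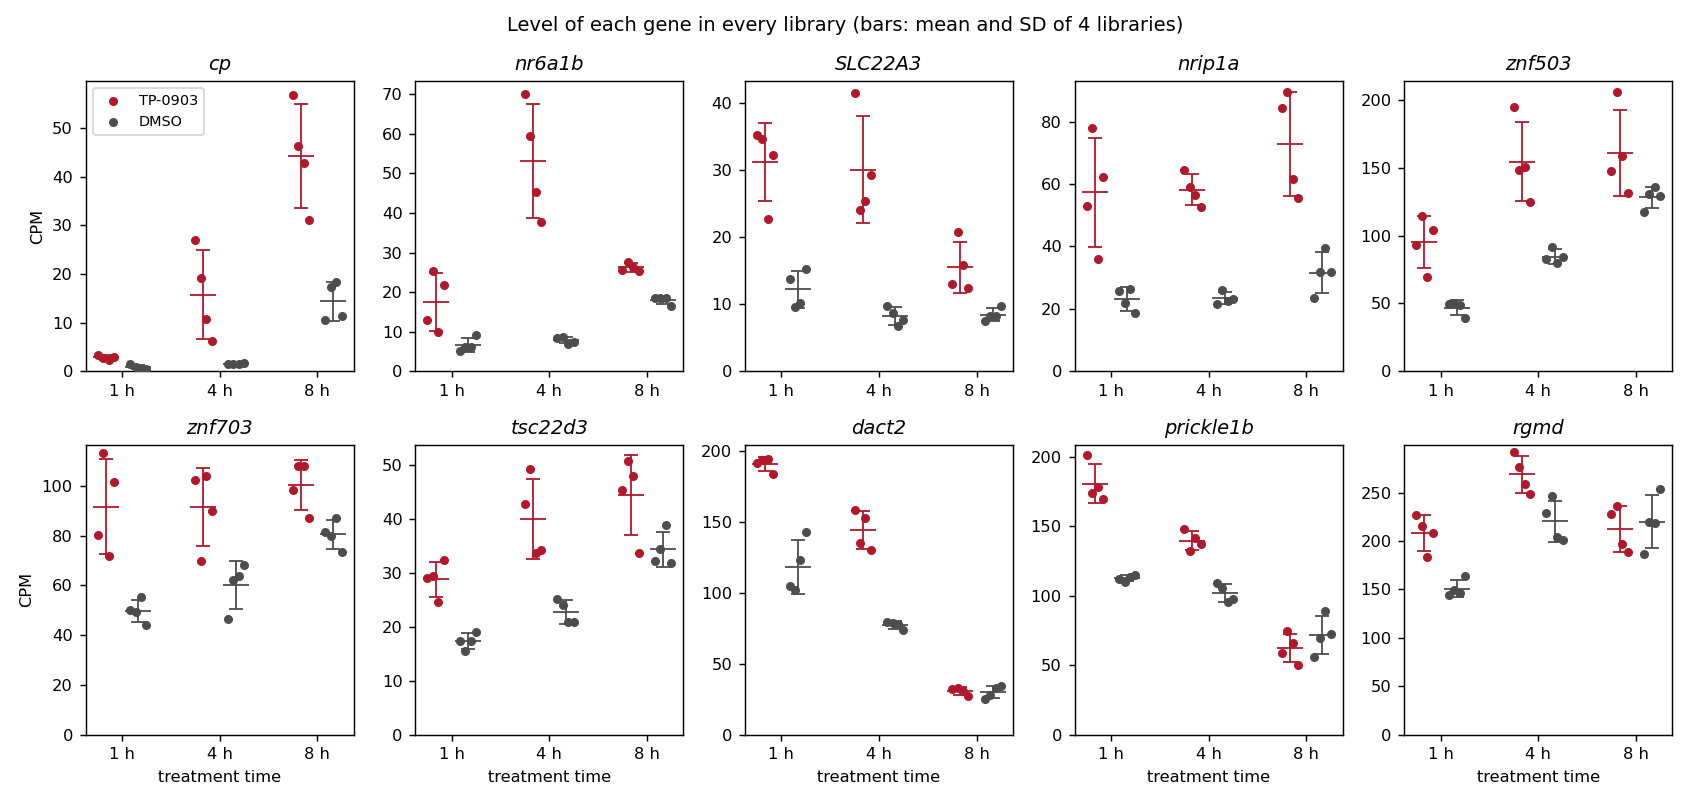
CPM of each gene (vertical axis, from 0) in every library at 1, 4 and 8 h, with TP-0903 in red to the left of DMSO in grey. Points are libraries and bars give the mean and SD of 4. At 4 h the TP-0903 points lie above all DMSO points in all 10 panels, and at 8 h they do so for nrip1a, nr6a1b, SLC22A3 and cp.

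At 4 h, in libraries that the rule did not use, all 10 genes had every TP-0903 library above every DMSO library, against 3.51% of all genes. The members were nevertheless chosen with earlier results of these data known, so the later times are not a fully independent check. Of the 10, 8 were called higher, against 0.495% of 15953 genes tested; the 2 others were znf703 and rgmd. At 8 h 7 of the 10 were called higher, against 15.4% of 17478 genes tested, while 13.5% of all genes were called lower. Only nrip1a, nr6a1b, SLC22A3 and cp still had groups that did not overlap at 8 h, which held for 15.5% of all genes. The median log2 fold change of the 10 genes was 0.95 at 1 h, 0.88 at 4 h and 0.35 at 8 h, beside all-gene medians of 0.0051, 0.0011 and -0.0062. The 1 h values chose the genes and may be too high for that reason, so a smaller value at 4 h need not be a decline. The 7 calls at 8 h fell to 4 without TP-0903 replicate 3.

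**Figure D2:**
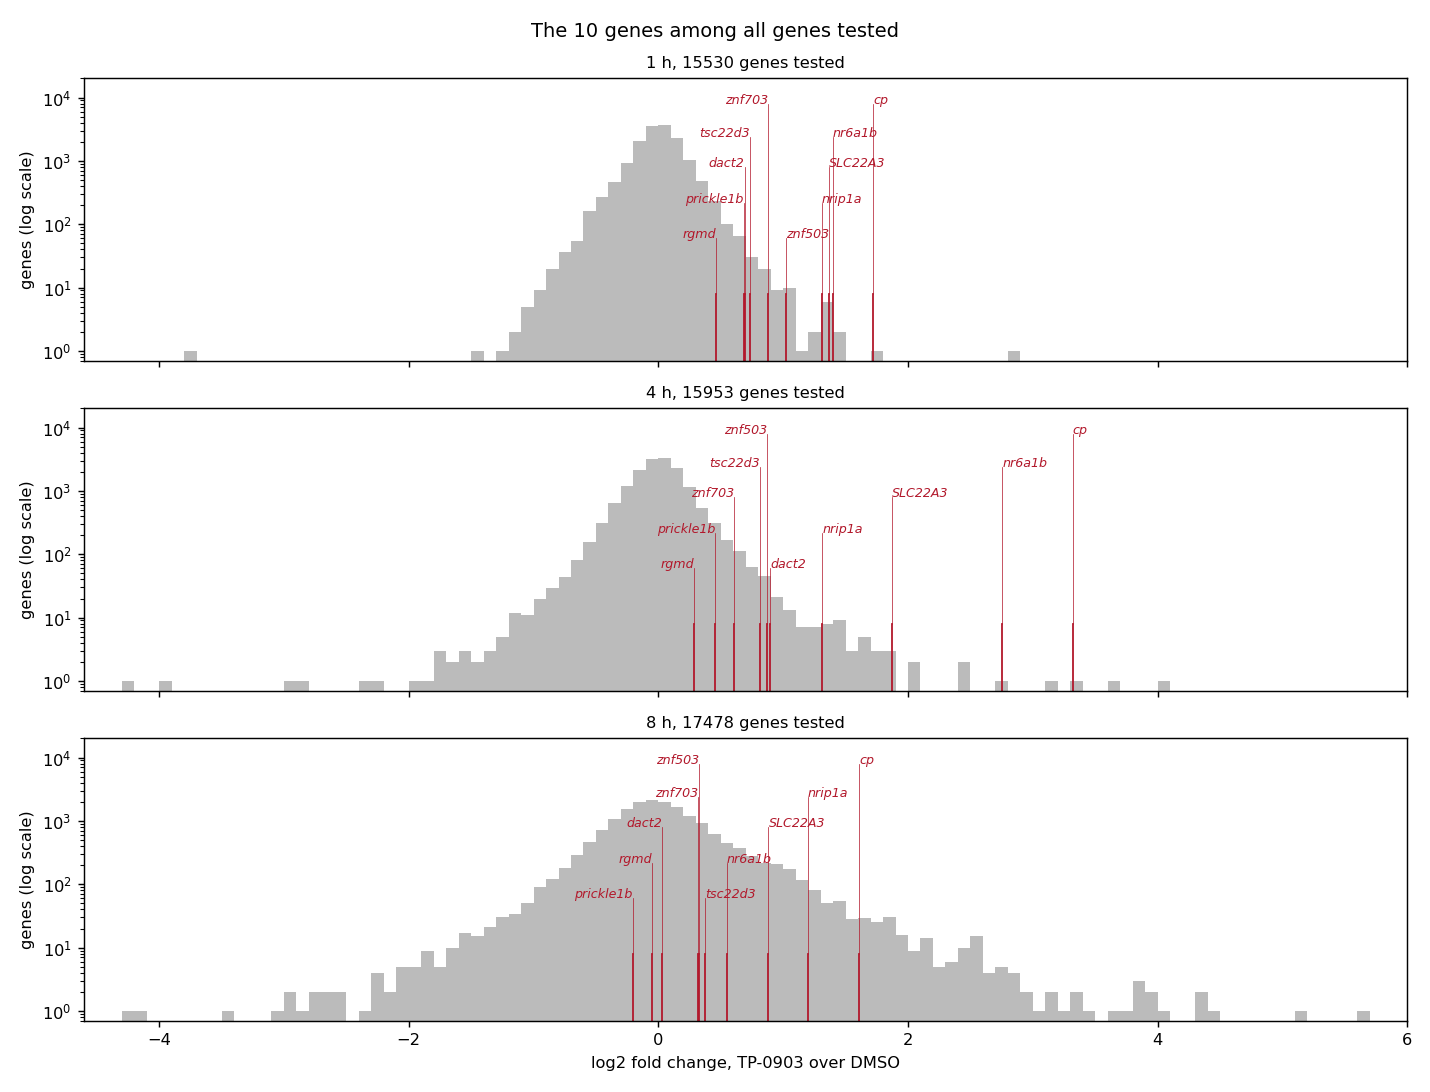
Log2 fold change of TP-0903 over DMSO (horizontal axis) for all genes tested at 1, 4 and 8 h in grey, with the number of genes on a log scale, and the 10 genes marked by red lines and names. The marked genes run between 0.47 and 1.72 at 1 h, between 0.29 and 3.32 at 4 h and between -0.20 and 1.61 at 8 h, where the grey distribution is wider.

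The longest-lasting difference of even size was that of nrip1a. At 1 h nrip1a had 52.8, 78.1, 36.1 and 62.4 CPM in the TP-0903 libraries, against 25.7, 21.8, 26.5 and 18.5 CPM in the DMSO libraries. At 4 h it had 64.5, 59.1, 56.5 and 52.6 CPM with TP-0903, against 21.6, 26.2, 22.6 and 23.3 CPM with DMSO. At 8 h the values were 84.5, 89.5, 61.6 and 55.6 CPM with TP-0903, against 23.4, 31.8, 39.5 and 31.8 CPM with DMSO. The groups stayed apart at each time, with TP-0903 replicate 3 closest to DMSO at 1 h. The log2 fold change of nrip1a was 1.31 ± 0.24 at 1 h (SE, n = 4 each), 1.31 ± 0.10 at 4 h (edgeR adjusted p = 0.000127) and 1.20 ± 0.16 at 8 h (edgeR adjusted p = 0.000101). Its change between the 4 h and 8 h effects was -0.09 (95% interval -0.54 to 0.36, edgeR adjusted p = 0.813), an interval that holds changes of either sign.

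nr6a1b had its largest difference at 4 h. It stood at 13.0, 25.4, 9.81 and 21.7 CPM in the TP-0903 libraries at 1 h, against 4.999, 6.13, 6.19 and 9.25 CPM in the DMSO libraries. At 4 h nr6a1b reached 70.1, 59.4, 45.4 and 37.8 CPM with TP-0903, against 8.36, 8.72, 6.92 and 7.47 CPM with DMSO. At 8 h it had 25.6, 27.7, 26.3 and 25.3 CPM with TP-0903, against 18.4, 18.5, 18.5 and 16.4 CPM with DMSO. At 4 h the lowest TP-0903 library held more nr6a1b than any library at 8 h. The log2 fold change was 1.40 ± 0.33 at 1 h, 2.75 ± 0.19 at 4 h (edgeR adjusted p = 9.0e-05) and 0.55 ± 0.092 at 8 h (edgeR adjusted p = 0.000582). In 1 edgeR fit of all 24 libraries the 8 h adjusted p of nr6a1b was 0.0999. The 8 h effect of nr6a1b was smaller than its 4 h effect by a log2 difference of -2.18 (95% interval -2.64 to -1.73, edgeR adjusted p = 5.8e-06). Both groups differed in mean level between these times, without a test: mean nr6a1b in TP-0903 at 8 h was 0.493 times its 4 h level while DMSO embryos at 8 h had 2.28 times their 4 h level.

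The pair of nlz zinc finger genes had moderate differences, smaller in value at 8 h by an amount that was not called. For znf503, TP-0903 libraries held 69.8 to 115 CPM at 1 h, against 39.1 to 50.3 CPM in DMSO. At 4 h znf503 had 125 to 195 CPM with TP-0903, against 79.5 to 91.8 CPM with DMSO, and at 8 h it had 131 to 206 CPM with TP-0903, against 117 to 136 CPM with DMSO. The znf503 groups overlapped at 8 h, where the lowest TP-0903 library stood below the highest DMSO library. Its log2 fold change was 1.02 ± 0.17, 0.87 ± 0.12 (edgeR adjusted p = 0.00704) and 0.33 ± 0.11 (edgeR adjusted p = 0.0411) at 1, 4 and 8 h. The 8 h call of znf503 was lost in 7 of 8 fits that left out a library, with adjusted p up to 0.140, and its log2 fold change was 0.19 without TP-0903 replicate 2.

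For znf703 the 1 h values were 71.9 to 113 CPM with TP-0903 and 44.1 to 55.2 CPM with DMSO. At 4 h znf703 had 69.7 to 104 CPM with TP-0903 and 46.3 to 68.3 CPM with DMSO, and at 8 h 87.1 to 108 CPM with TP-0903 and 73.3 to 87.2 CPM with DMSO. The znf703 groups came within a few CPM of each other at 4 h and overlapped at 8 h. Its log2 fold change was 0.88 ± 0.17 at 1 h, 0.60 ± 0.14 at 4 h (edgeR adjusted p = 0.121) and 0.32 ± 0.085 at 8 h (edgeR adjusted p = 0.0121). At 4 h znf703 was called by DESeq2 (adjusted p = 0.0210), and by edgeR without TP-0903 replicate 2 (adjusted p = 0.0187). Its 8 h call was lost without TP-0903 replicate 3 (edgeR adjusted p = 0.0506) and in 1 edgeR fit of all 24 libraries (adjusted p = 0.143). The changes of the effect between 4 h and 8 h were -0.52 for znf503 (edgeR adjusted p = 0.0641) and -0.26 for znf703 (edgeR adjusted p = 0.323), and neither was called. The znf503 change was called without TP-0903 4 h replicate 4 (edgeR adjusted p = 0.0283) and without TP-0903 8 h replicate 2 (edgeR adjusted p = 0.0176).

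**Figure D3:**
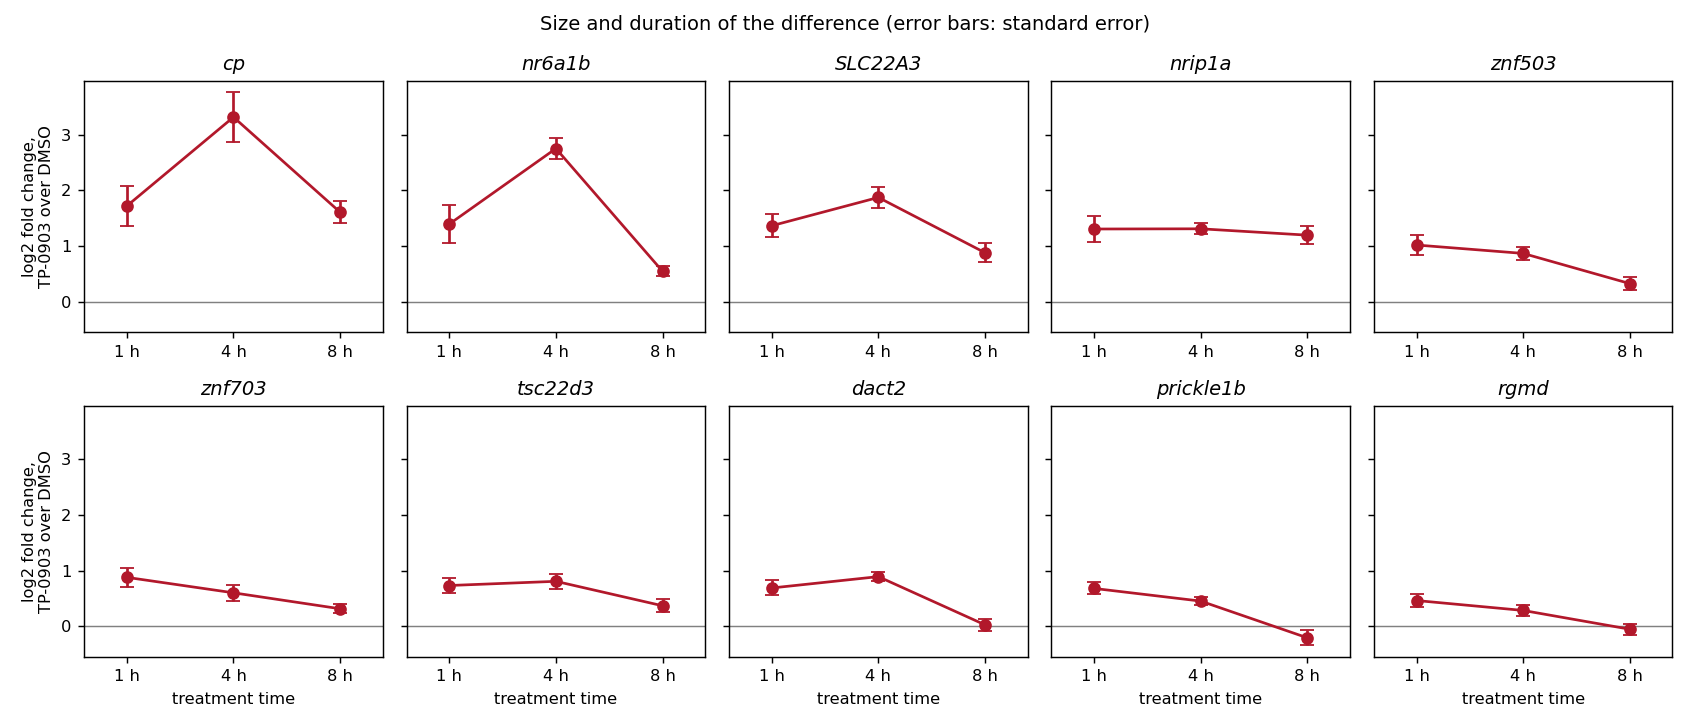
Log2 fold change of TP-0903 over DMSO (vertical axis) against treatment time for each of the 10 genes, with standard errors back-calculated from the edgeR F statistics. The line of nrip1a is nearly level at 1.31, 1.31 and 1.20, those of nr6a1b and cp peak at 4 h, and those of dact2, prickle1b and rgmd end near 0.

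The Wnt and planar polarity genes prickle1b and dact2 were higher with TP-0903 at 1 h and 4 h but were not called at 8 h. At 1 h prickle1b had 201, 174, 178 and 169.7 CPM in the TP-0903 libraries, against 112, 109.8, 114 and 115 CPM in the DMSO libraries. At 4 h it had 148, 132, 142 and 137 CPM with TP-0903, against 109, 106, 95.4 and 97.6 CPM with DMSO. At 8 h prickle1b had 59.2, 74.4, 66.3 and 50.0 CPM with TP-0903, against 55.9, 69.8, 89.4 and 72.8 CPM with DMSO. The groups were clearly separate at 1 h, closer at 4 h and mixed at 8 h. For prickle1b the log2 fold change was 0.68 ± 0.11, then 0.46 ± 0.079 (edgeR adjusted p = 0.0222), then -0.20 ± 0.14 (edgeR adjusted p = 0.280). The 8 h effect was smaller than the 4 h effect by -0.64 (edgeR adjusted p = 0.0223). The 4 h call of prickle1b was lost in 6 of 8 fits that left out a library, with adjusted p up to 0.116.

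For dact2 the TP-0903 libraries had 191, 193, 194 and 183 CPM at 1 h, against 105, 102, 123 and 142 CPM in the DMSO libraries. At 4 h dact2 had 158, 135, 152 and 130.1 CPM with TP-0903, against 79.2, 78.5, 78.2 and 73.5 CPM with DMSO. At 8 h it had 32.1, 33.1, 30.6 and 27.2 CPM with TP-0903, against 25.0, 27.7, 32.9 and 34.6 CPM with DMSO. TP-0903 libraries at 4 h thus held as much dact2 as DMSO libraries at 1 h or more, apart from 1 DMSO library, and at 8 h both groups were low and mixed. For dact2 it was, as log2 fold change, 0.69 ± 0.13, 0.90 ± 0.085 (edgeR adjusted p = 0.00059) and 0.03 ± 0.11 (edgeR adjusted p = 0.868) at 1, 4 and 8 h. The change between the 4 h and 8 h effects was -0.84 (95% interval -1.14 to -0.55, edgeR adjusted p = 0.000814). Its normal level fell steeply over these stages, the DMSO mean at 8 h being 0.254 times that at 1 h.

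The genes of a secreted protein, cp, and of a membrane transporter, SLC22A3, stayed higher with TP-0903 at all 3 times. In counts, cp had 28, 23, 23 and 16 reads in the TP-0903 libraries at 1 h, against 6, 7, 2 and 2 in the DMSO libraries. At 4 h cp had 26.9, 19.1, 10.7 and 6.15 CPM with TP-0903, against 1.39, 1.48, 1.497 and 1.71 CPM with DMSO. At 8 h it had 56.8, 46.4, 42.8 and 31.0 CPM with TP-0903, against 10.5, 17.3, 18.4 and 11.3 CPM with DMSO. The groups stayed apart throughout, but the TP-0903 libraries at 4 h differed among themselves by a larger ratio than for any other member, lying between 6.15 and 26.9 CPM. On the log2 scale the fold change of cp was 1.72 ± 0.36 at 1 h, 3.32 ± 0.44 at 4 h (edgeR adjusted p = 0.00483) and 1.61 ± 0.19 at 8 h (edgeR adjusted p = 3.1e-05). With limma voom the 4 h value of cp had an adjusted p of 0.0600.

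The change of the cp effect between 4 h and 8 h was -1.67 (edgeR adjusted p = 0.0445), a call that was lost in 11 of 16 fits that left out a library, with adjusted p up to 0.0834, and with limma voom (adjusted p = 0.164). DMSO embryos themselves gained cp, with 17.2 times as much at 8 h as at 1 h. Ceruloplasmin is a product of liver and yolk-associated tissue. In a list of 15 other yolk syncytial layer and liver genes edgeR called 0 at 4 h, where 0.495% of all genes were called higher. Of the 15, 5 had an unadjusted p under 0.05, and DESeq2 and limma voom called 0. The median log2 fold change of the list at 4 h was 0.38, beside 0.0011 for all genes. The summed level of that list at 4 h was 5207, 7962, 3508 and 3279 CPM in the TP-0903 libraries, against 5223, 3446, 3558 and 3463 CPM in the DMSO libraries. The 2 TP-0903 libraries with most cp thus also had most of the list, but the DMSO library with most of the list had the least cp (1.39 CPM). The DMSO libraries at 4 h held only 11 to 16 cp counts each, too few to rank them by cp. At 1 h TP-0903 replicate 3 had the most of the list in its group (6058 CPM) and the least cp (2.35 CPM). At 8 h TP-0903 replicate 4 had the least of both (2545 and 31.0 CPM), and DMSO replicate 3 the most of both (6130 and 18.4 CPM). The part of the list's level in the cp difference was not tested. At 8 h 3 of the 15 were called higher and 3 lower, beside 15.4% and 13.5% of all genes. The called genes of the list included apoea, an apolipoprotein gene (log2 fold change 1.78), and mtp, which loads lipid onto lipoproteins (-0.87). At 4 h both had the opposite sign and were not called: apoea -1.61 (edgeR adjusted p = 0.153) and mtp 0.46 (edgeR adjusted p = 0.520). The 4 h level of apoea was very low, with means of 0.78 CPM with TP-0903 and 2.33 CPM with DMSO.

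SLC22A3 had 35.3, 34.7, 22.8 and 32.3 CPM in the TP-0903 libraries at 1 h, against 13.7, 9.64, 10.2 and 15.3 CPM in the DMSO libraries. At 4 h it had 41.6, 24.1, 25.5 and 29.2 CPM with TP-0903, against 9.76, 8.72, 6.74 and 7.58 CPM with DMSO. At 8 h SLC22A3 had 13.1, 20.7, 15.9 and 12.4 CPM with TP-0903, against 7.50, 8.29, 8.27 and 9.71 CPM with DMSO. All 4 TP-0903 libraries exceeded all 4 DMSO libraries at every time, by less at 8 h. The log2 fold change of SLC22A3 was 1.37 ± 0.21, 1.87 ± 0.19 (edgeR adjusted p = 0.000675) and 0.88 ± 0.17 (edgeR adjusted p = 0.00126), and the 8 h effect was smaller than the 4 h effect by -0.97 (edgeR adjusted p = 0.0235). That last call was lost without DMSO 4 h replicate 3 (adjusted p = 0.0511) and without TP-0903 8 h replicate 1 (adjusted p = 0.0501).

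For tsc22d3 the TP-0903 libraries held 24.6 to 32.5 CPM at 1 h, against 15.5 to 19.0 CPM in DMSO, and 33.7 to 49.3 CPM at 4 h, against 20.9 to 25.2 CPM in DMSO. At 8 h tsc22d3 had 33.7 to 50.8 CPM with TP-0903 and 31.9 to 38.9 CPM with DMSO, with overlap. The log2 fold change was 0.74 ± 0.14, 0.81 ± 0.13 (edgeR adjusted p = 0.0172) and 0.37 ± 0.12 (edgeR adjusted p = 0.0299). The 4 h call was lost in 4 of 8 fits that left out a library (adjusted p up to 0.0920), with a log2 fold change of 0.69 to 0.88 over the 8 fits, and the 8 h call in 6 of 8 (adjusted p up to 0.103), with 0.30 to 0.48. Of 17 other glucocorticoid receptor and inducible genes, edgeR called 0 at 4 h, with 3 at an unadjusted p under 0.05, 1 by DESeq2 and 0 by limma voom. Over all genes 0.495% were called higher at 4 h, a share at which a list this short may hold none. Of 19 at 8 h, only tat, a tyrosine aminotransferase gene, was called higher (log2 fold change 1.46) and only zbtb16a, a zinc finger gene, lower (-0.39). The level of tat was very low, with means of 1.38 CPM with TP-0903 and 0.505 CPM with DMSO. It passed the filter on low counts only through the TP-0903 libraries, so its place among the tested genes depended on its level there. The all-gene shares at 8 h were 15.4% higher and 13.5% lower.

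rgmd had the smallest fold change of the 10 genes at 1 h and at 4 h. It had 183 to 226 CPM in TP-0903 libraries at 1 h, against 144 to 164 CPM in DMSO, 248 to 292 CPM in TP-0903 at 4 h, against 201 to 246 CPM in DMSO, and 188 to 236 CPM in TP-0903 at 8 h, against 187 to 254 CPM in DMSO. On this scale the fold change of rgmd was 0.47 ± 0.12, 0.29 ± 0.093 (edgeR adjusted p = 0.313) and -0.05 ± 0.097 (edgeR adjusted p = 0.735), so it was called at neither later time. At 4 h the groups were separate by under 2 CPM, and the change of its effect between 4 h and 8 h was -0.31 (edgeR adjusted p = 0.155).

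For each gene alone, the two-sided exact permutation test of 4 against 4 libraries gave p = 0.0286, the smallest it allows, for every member at 4 h. At 8 h it gave 0.0286 for nrip1a, nr6a1b, SLC22A3 and cp, 0.0571 for znf503 and znf703, 0.0857 for tsc22d3, 0.343 for prickle1b, 0.714 for rgmd and 0.771 for dact2 (exact permutation, two-sided). Between 4 h and 8 h the log2 fold change of 5 of the 10 was called lower at 8 h by edgeR (nr6a1b, cp, SLC22A3, dact2 and prickle1b). The same held for 7.74% of 15913 genes tested. That share counts every gene with a lower signed value at 8 h, whatever its value at 4 h, so it is not the share of rises that faded. All 10 differences between the 8 h and 4 h effects were below 0. The 5 calls fell to 3 without DMSO 4 h replicate 3. The 4 h and 8 h counts came from tables made separately, so time and table cannot be told apart in these differences.

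**Figure D4:**
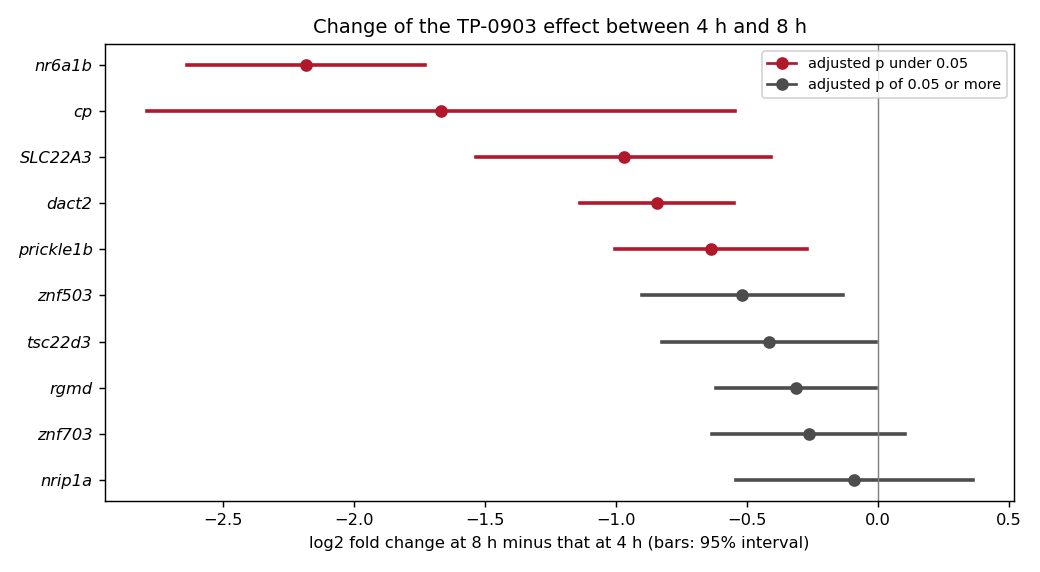
Log2 fold change at 8 h minus that at 4 h (horizontal axis) for each of the 10 genes, with 95% intervals from the edgeR fit of 16 libraries, in red where the adjusted p was under 0.05. The points lie between -2.18 for nr6a1b and -0.09 for nrip1a, and the interval of znf703 and that of nrip1a cross 0.

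The genes differed widely in their normal level per transcript length. In the authors' fragments per kilobase of gene and per 1000000 reads (FPKM), DMSO embryos at 1 h had 70.6 for rgmd, 39.1 for dact2, 32.0 for prickle1b, 19.0 for znf503 and 17.0 for znf703. They had 10.3 for tsc22d3, 6.34 for SLC22A3, 5.11 for nrip1a, 4.88 for nr6a1b and 0.236 for cp. The lowest and the highest of these levels were those of cp and rgmd. In this order the ranges of znf503 and znf703 over libraries overlapped (SD 3.05 and 2.30 FPKM, n = 4). So did those of SLC22A3, nrip1a and nr6a1b (SD 1.17, 1.02 and 1.04 FPKM, n = 4). Within each of the 4 DMSO libraries, however, znf503 stood above znf703 and SLC22A3 above nr6a1b. At 8 h rgmd again had the highest DMSO level, 101 FPKM, followed by znf503 at 50.8 FPKM, whereas dact2 stood at 9.82 FPKM and SLC22A3 and cp, which did not differ beyond their spread, at 4.33 and 3.96 FPKM (SD 0.494 and 1.13, n = 4). By 8 h the DMSO mean of znf503 was 2.73 times its 1 h level in CPM, that of nr6a1b 2.70 times and that of tsc22d3 1.98 times, whereas SLC22A3 was at 0.691 times and prickle1b at 0.639 times. These ratios compare tables that were made separately and carry no test.

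Of 10 paralogues of the members tested, 2 were called higher at 4 h, where 0.495% of all genes were, with 3 called by DESeq2 and 2 by limma voom. They were nrip1b (log2 fold change 0.56) and dact1 (0.39), and both were also called higher at 8 h (0.52 and 0.52). At 8 h 2 of the 10 were higher and 2 lower, beside 15.4% and 13.5% of all genes. The other nr6a1 gene, nr6a1a, had a log2 fold change of 0.42 at 4 h (edgeR adjusted p = 0.0530) and was called lower at 8 h with -0.59 (edgeR adjusted p = 0.000838), whereas nr6a1b was higher at both times. hfe2 (hemojuvelin), a relative of rgmd expressed in muscle, was also lower at 8 h (-1.70), while prickle1a, prickle3, rgma, slc22a2, tsc22d1 and tsc22d2 were not called at either time. The authors discarded repetitive alignments, so reads shared by near copies may be missing from both. Whether counting used strand is not given in the sources used here, and znf703, rgmd and cp overlap noncoding gene models in a later RefSeq annotation while nr6a1b hosts microRNAs there.

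Among 21 other nuclear receptor coregulators, the class of nrip1a, 2 were called higher at 4 h, beside 0.495% of all genes. They were ncoa3, a coactivator (0.71), and nrip1b, which is also counted among the paralogues above. At 8 h 10 of 21 were called higher with none lower, beside 15.4% of all genes higher and 13.5% lower. The 8 h calls were all small, reaching 0.73 for lcor, a corepressor, and 0.71 for ncoa3. Of these 21 genes, 11 had an unadjusted p under 0.05 at 8 h, and DESeq2 and limma voom called 10 each. Among 30 other planar cell polarity genes, 3 were called higher at 4 h (4 called by DESeq2, 2 by limma voom), beside 0.495% of all genes: wnt11, a ligand (0.96), ror1, a receptor (0.61), and wnt11r, a ligand (0.42). At 8 h 5 of 31 were called higher, led by the cadherin celsr3 (0.90), and 5 lower, led by the receptor fzd7a (-0.45), shares near those of all genes (15.4% higher and 13.5% lower).

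Around rgmd, edgeR called 0 of 23 repulsive guidance molecule, neogenin and BMP genes at 4 h (4 at an unadjusted p under 0.05, 1 by DESeq2, 0 by limma voom). For this and the next lists the all-gene shares were again 0.495% higher at 4 h, and 15.4% higher and 13.5% lower at 8 h. At 8 h 3 of 24 were higher and 8 lower. The higher ones were the receptor genes bmpr2b (0.40) and bmpr2a (0.36) and the ligand gene bmp2b (0.38). The lower ones included the receptor gene bmpr1ba (-0.95), the ligand gene bmp7a (-0.80) and id3, a BMP target (-0.68). Of 17 iron and copper handling genes around cp, edgeR called 0 at 4 h (3 at an unadjusted p under 0.05, 0 by DESeq2 and limma voom). At 8 h 1 was higher and 4 lower, with tfa, transferrin, at -0.80. Of 8 Groucho and histone deacetylase corepressors, partners of the nlz proteins, edgeR called 0 at 4 h (1 at an unadjusted p under 0.05, 0 by DESeq2 and limma voom), and 3 were higher and 1 lower at 8 h. Of the solute carriers related to SLC22A3, 0 of 7 were called at 4 h by edgeR, DESeq2 or limma voom, also at an unadjusted p under 0.05, whereas at 8 h 2 of 9 were higher, led by slc22a7a (1.56), and 2 lower, led by SLC22A31 (-0.72).

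Some libraries deviated the same way for most of the members. TP-0903 replicate 3 at 1 h was the lowest of its group for 8 of 10 genes, and over the 10 genes its median deviation from the group mean was -0.272 on the log2 scale. At 8 h TP-0903 replicate 4 was lowest for 10 of 10 (median deviation -0.277) and replicate 2 was highest for 9, while DMSO replicate 1 was lowest for 7 (median deviation -0.189). TP-0903 replicate 4 and DMSO replicate 1 also stood at the same end of the main axis of all genes within treatments at 8 h (-24.4 and -26.2), which held 25.8% of that variance. TP-0903 replicate 1 at 4 h was highest for 8 (median deviation 0.166) and TP-0903 replicate 4 at 4 h was lowest for 6 (median deviation -0.141). TP-0903 replicate 3 and DMSO replicate 4 at 1 h also stood together at one end of the main axis of all genes within treatments, which held 70.8% of that variance. Without both, the 1 h median of the 10 genes was 1.00, against 0.95 with all libraries. Of 9 whole-embryo tissue markers tested, edgeR called 0 at 4 h (2 at an unadjusted p under 0.05, 0 by DESeq2 and limma voom), beside 0.495% of all genes higher. At 8 h the muscle gene myod1 (-0.47) and the skin gene krt4 (-0.31) were lower and the neural gene neurog1 (0.46) was higher, beside 13.5% of all genes lower and 15.4% higher. In value neurog1 was already higher at 1 h (0.66 ± 0.14) and at 4 h (0.43 ± 0.12, edgeR adjusted p = 0.185). The other neural marker, pax2a, went the other way in value, with -0.18 ± 0.18 at 1 h and -0.14 ± 0.10 at 4 h (edgeR adjusted p = 0.696). At 8 h pax2a was not called (0.10, edgeR adjusted p = 0.404). At 1 h and 4 h myod1 and krt4 were not lower. The part of these shifts in the values of the 10 genes was not tested.

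**Figure D5:**
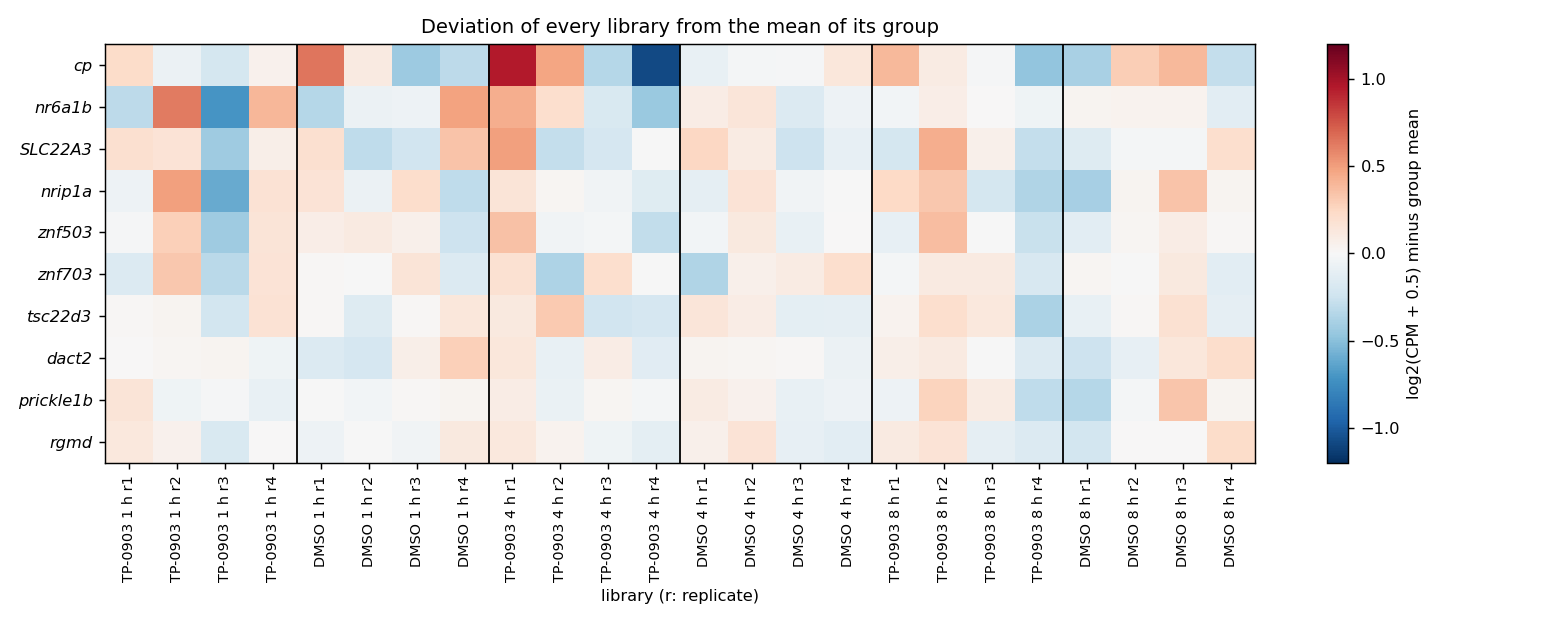
Deviation of each library from the mean of its group, as log2(CPM + 0.5), for the 10 genes (rows) and 24 libraries (columns, TP-0903 left of DMSO at each time). Red is above and blue below the group mean, and the columns of TP-0903 replicate 3 at 1 h and TP-0903 replicate 4 at 8 h are mostly blue.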

How the data were processed

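Zebrafish embryos were treated with TP-0903 or DMSO for 1, 4 or 8 h, with 4 libraries of 35 embryos per group. Per the labels, stranded ribosomal-depleted RNA was sequenced as single reads, aligned with Novoalign (version 2.08.03) to zv9 and splice junctions, and counted per Ensembl gene. The deposited read counts are not normalized, and FPKM is the authors' value scaled for gene length and library size. CPM was computed here with TMM library sizes. The authors' own columns of fold change and adjusted p were not used. Members, gene lists and tests were chosen with earlier results of these data known. Counts were tested in R 4.3.3 with edgeR 4.0.16 (filterByExpr, TMM, quasi-likelihood, Benjamini-Hochberg), separately at each time, and the 8 h minus 4 h effect in 1 fit of 16 libraries. All 10 members were named at each time, and in each list up to 4 called genes with the largest change. In the list around rgmd the 3 genes called higher at 8 h were also named. Alternatives were DESeq2 1.42.0, limma 3.58.1 voom, RLE scaling, no filter, 1 fit of 24 libraries, a replicate block and left-out libraries. Scripts were tested on simulated data. Depth was 3879310 to 10582470 counts per library. No sequences are shown.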

Additional observations from a re-analysis of the deposited data

Results flagged for a closer look

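The effect of TP-0903 at 8 h minus that at 4 h differed by the test of the difference itself for nr6a1b (-2.18), SLC22A3 (-0.97), prickle1b (-0.64), dact2 (-0.84) and cp (-1.67), as log2 values.

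Of 66 groups of 4 libraries looked at for a library far from the others, 3 held one, and chance gives about 1 in 20. In DMSO at 8 h replicate 4 had 16.4 CPM of nr6a1b, against 18.4 to 18.5 CPM in the others (gap over range 0.947). In DMSO at 1 h replicate 4 had 39.1 CPM of znf503, against 48.8 to 50.3 CPM (0.866). DMSO replicate 2 at 1 h had a total of 7663030 counts, against 3879310 to 4376883 (0.868).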

How the results depend on the processing

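The median fold change of the 10 genes kept its direction under every alternative run, at 0.84 to 1.06 (1 h), 0.81 to 0.95 (4 h) and 0.29 to 0.45 (8 h) when 1 library was left out. Members called higher at 4 h numbered 6 to 9 on leaving out a library, against 8. The 7 calls at 8 h became 4 to 7 on leaving out a library, 3 in 1 fit of all 24 libraries, where a shared spread is assumed, and 4 at an adjusted p of 0.01. Without TP-0903 replicate 4 and DMSO replicate 1 at 8 h, an alternative chosen after seeing the data, 7 were called. The 5 members with a smaller effect at 8 h became 3 to 6 on leaving out a library. Over all genes, calls higher at 4 h were 137 with DESeq2 and 38 to 94 on leaving out a library, against 79, and calls higher at 8 h were 771 in the fit of 24 libraries, against 2691. Where no value above shows a cause, the cause was not tested. On leaving out a library, dact2 at 8 h ran from -0.050 to 0.10, rgmd at 8 h from -0.12 to 0.026 and the change of nrip1a between 4 h and 8 h from -0.21 to 0.035.

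Samples share only a replicate number, and same-numbered samples correlated at -0.73 to 0.602 at 1 h, 0.0787 to 0.44 at 4 h and -0.0837 to 0.0568 at 8 h. With the replicate block, 145 genes were called higher at 4 h, 8 members were called higher at 4 h and 6 differed between 8 h and 4 h, znf503 being added (edgeR adjusted p = 0.0399). At 4 h TP-0903 replicates 1, 3 and 4 correlated best with the DMSO library of their own number, and replicate 2 did not. The main axis of all genes within treatments at 4 h held 37.5% of that variance. On it replicates 1 and 2 of both treatments had negative values and replicates 3 and 4 positive ones, so replicate number carried some shared variation at 4 h. With 2 to 28 cp counts per library at 1 h, its 1 h value ran from 1.53 to 2.07 on leaving out a library.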
